A study of Homo sapiens with 6 samples.

Results

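The 45 genes described here encode proteins that repair DNA or stop the cell cycle when DNA is damaged. They were chosen by symbol, all 45 had a row among the 55765 genes of the deposited count table, and 44 had enough counts to be tested. They were grouped by the route they are best known for, with 13 genes of homologous recombination and end resection, 6 of end joining, 4 checkpoint kinases, 2 of mismatch repair, 5 of the Fanconi anaemia pathway, 7 of nucleotide excision, 7 of base excision and single-strand break repair, and 1 of direct reversal.

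The libraries came from OCI-AML2, an established human line of acute myeloid leukaemia cells. In 3 libraries the cells had been treated for 48 h with 100 nM MRT199665, a kinase inhibitor that the labels call a MARK inhibitor and that is known to act on the related SIK kinases as well, and in the other 3 with vehicle for the same time. Messenger RNA was sequenced from its 3′ end, so levels are given as CPM (counts scaled to library size with TMM factors) and were not divided by transcript length. The series is about phosphorylation of the transcription factor MEF2C and resistance to chemotherapy, and many chemotherapy drugs act by damaging DNA.

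Cells mend DNA along several routes that differ in the lesion they take on. Homologous recombination copies a sister chromatid and is used mostly in S and G2 phase, whereas non-homologous end joining ligates broken ends in any phase. Excision routes cut out a damaged base or stretch of bases, mismatch repair corrects replication errors, and the Fanconi pathway undoes crosslinks between the strands. The kinases ATM and ATR sense the damage and pass the signal to CHEK2 and CHEK1, which hold the cell cycle. In dividing blood cells many recombination and checkpoint genes are transcribed with the cell cycle.

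Total counts lay between 5871097 and 14308650 with MRT199665 and between 9517907 and 11994657 with vehicle, the least in MRT199665 replicate 2. On the first principal component over all tested genes, with 46.8% of the variance, MRT199665 replicate 2 and vehicle replicate 2 stood at opposite ends and the groups were not separated. The second component, with 26.3% of the variance, did separate the groups. There MRT199665 replicates 1, 2 and 3 lay at -26.4, -5.94 and -16.3, and vehicle replicates 1, 2 and 3 at 35.3, 0.954 and 12.4. Of 8 myeloid markers 7 were detected, with a summed level, here in CPM of plain library totals, of 354 to 375 in MRT199665 libraries and 276 to 313 in vehicle libraries, while CEBPA had a count of 0 in all 6 libraries. Of 14 markers of T, B, erythroid, megakaryocytic, epithelial and fibroblast cells 6 had no count, and the list summed on that scale to 6.01 to 6.98 in MRT199665 libraries and 6.67 to 9.25 in vehicle libraries. Of the 7 myeloid markers detected, 6 had a positive log2 fold change, MRT199665 over vehicle, and 1, ANPEP, a negative one. ANPEP had 15, 7 and 7 counts in MRT199665 libraries, against 17, 21 and 19 in vehicle libraries. CSF3R, MPO and SPI1 weigh most in the myeloid sum. The part of the markers in any result was not tested. The labels mention culture of single-cell clones but do not tell whether replicates were grown apart, so each p-value rests on a spread between libraries that may be technical only.

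No repair or checkpoint gene passed the test in either direction. A gene passed when its Benjamini-Hochberg adjusted p over 13053 genes, from the quasi-likelihood test of edgeR, was under 0.05, and 1.25% of all tested genes passed it, 0.85% higher and 0.398% lower. Leaving out 1 library at a time gave 29 to 79 genes called higher and 20 to 55 called lower over the whole table, and no member was among them. An unadjusted p under 0.05 was reached by 7 of the 44 members (15.9%), against 14.7% of all genes. Of these 7 members 6 were lower (13.6% of members, against 7.11% of all genes) and 1 was higher (2.27%, against 7.64%). DESeq2 and limma-voom called no member either. The lowest adjusted p was 0.127, for XRCC1. Log2 fold changes of the members, MRT199665 over vehicle, ran from -0.64 for XRCC1 to 0.70 for RAD54L.

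The intervals show what size of change these libraries allow. The 95% interval of the log2 fold change lay within 2-fold in either direction for 41 of the 44 members, against 74.9% of all tested genes, and within 1.5-fold for 25, against 37.4%. The exceptions at 2-fold were RAD54L and CHEK2, which had few counts, and XRCC1. The members' median level was 25.1 CPM, against 13.4 CPM over all tested genes, and higher counts narrow the interval.

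**Figure D1:**
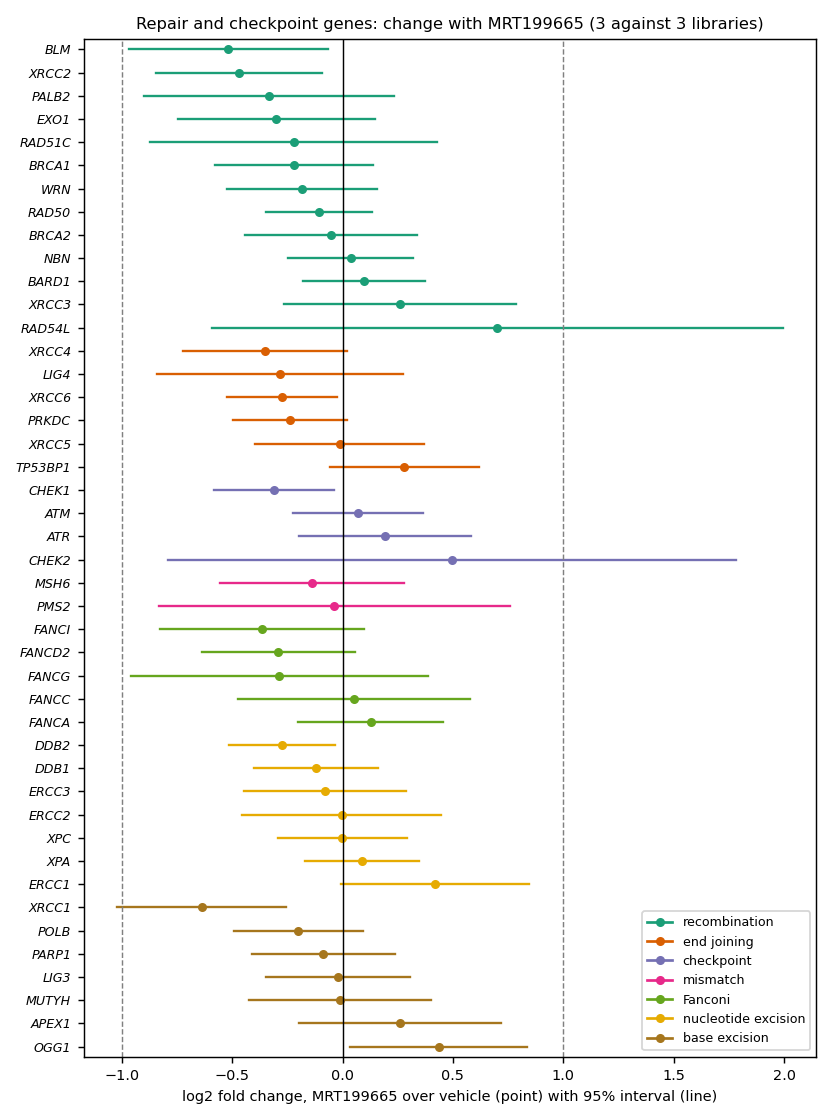
Each point is the log2 fold change of 1 repair or checkpoint gene, MRT199665 over vehicle (x axis), with its 95% interval as a line, grouped and coloured by repair route and sorted within each. Most intervals cross 0, and dashed lines mark 2-fold. XRCC1 at -0.64 lies farthest to the left, and the wide intervals of RAD54L and CHEK2 pass the dashed line on the right.

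Small negative values were the more common. Of the 44 members 30 had a negative log2 fold change, against 49.1% of all tested genes, with a median of -0.08 for the members and 0.01 for all genes. The count of negative members was between 25 and 30 over the alternative scalings, filters, tools and left-out libraries. It was lowest without vehicle replicate 1, where the members' median was -0.026 and 48.7% of all tested genes were negative. In 10 members every MRT199665 library was below every vehicle library (background 10.8% of all genes), and in 2 members, OGG1 and ERCC1, every one was above (background 11.4%). The 10 lower ones were XRCC1, XRCC2, XRCC4, XRCC6, BLM, RAD50, PRKDC, CHEK1, DDB2 and POLB, which come from 5 of the 8 routes. They were counted by order alone, and none of these 12 passed the test.

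**Figure D2:**
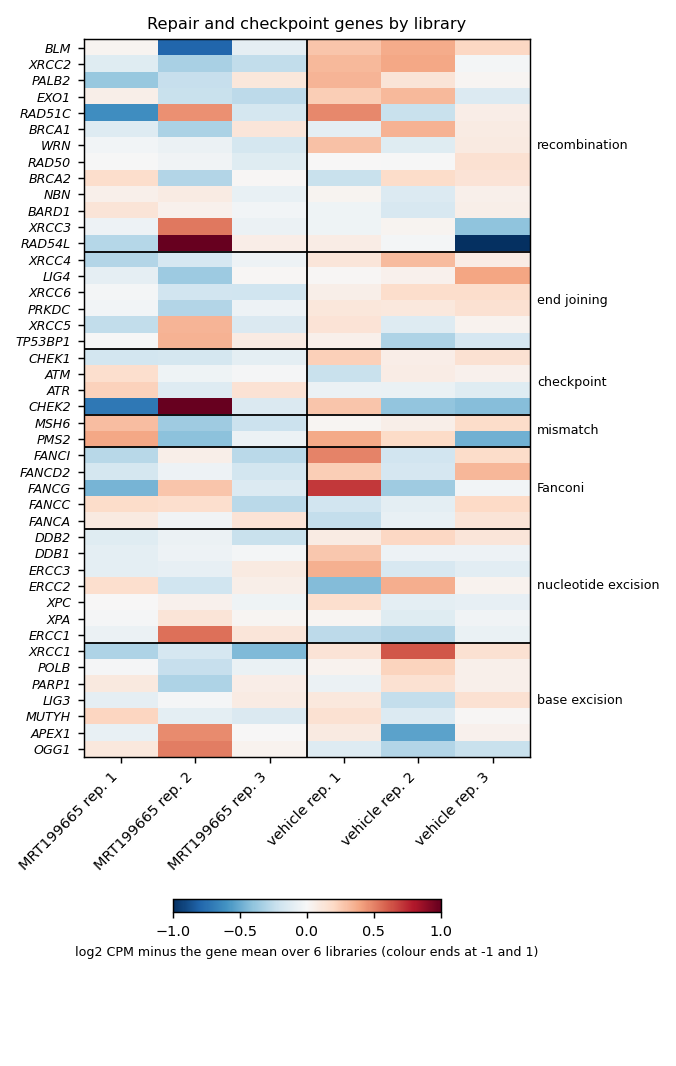
Rows are the 44 tested members by route, columns the 6 libraries, and colour gives log2 CPM minus the gene's mean over the 6 libraries (red above, blue below, colour ends at -1 and 1). The contrast between the 3 MRT199665 columns on the left and the 3 vehicle columns on the right is weak. RAD54L and CHEK2 stand out in MRT199665 replicate 2, with 14 and 33 counts there.

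Among the recombination genes, BLM and XRCC2 had the most negative values. BLM encodes the helicase that dissolves double Holliday junctions and is mutated in Bloom syndrome. It had 40.8, 23.0 and 37.6 CPM in MRT199665 replicates 1, 2 and 3, against 48.4, 51.8 and 46.2 CPM in vehicle replicates 1, 2 and 3. The groups did not overlap, and replicate 2 was the lowest of the treated libraries and the highest of the vehicle libraries. The log2 fold change was -0.52 ± 0.20 (SE, adjusted p = 0.272), and over the alternatives it ran from -0.67 to -0.27. Without MRT199665 replicate 2 it was -0.32. The 250 bases before the annotated start of BLM are shown because the gene had the most negative value of its route, with capitals marking CCAAT or its complement ATTGG, the letters that the factor NF-Y is known to bind (GRCh38.p14, chr15:90717096-90717345, plus strand, RefSeq).
BLM: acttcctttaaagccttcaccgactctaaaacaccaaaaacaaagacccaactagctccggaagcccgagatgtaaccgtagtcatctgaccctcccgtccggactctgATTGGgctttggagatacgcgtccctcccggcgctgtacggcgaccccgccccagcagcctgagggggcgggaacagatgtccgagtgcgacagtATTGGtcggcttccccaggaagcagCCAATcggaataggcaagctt

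XRCC2, a paralogue of the recombinase that helps to load it, had 9.21, 7.94 and 8.43 CPM in MRT199665 libraries and 12.6, 13.1 and 9.87 CPM in vehicle libraries. The groups did not overlap, with MRT199665 replicate 1 and vehicle replicate 3 nearest to each other. Its log2 fold change was -0.47 ± 0.17 (SE, adjusted p = 0.233). BRCA1, a ubiquitin ligase that promotes end resection and recombinase loading, was at 105, 91.9 and 124 CPM with MRT199665, against 107, 146 and 122 CPM with vehicle. The groups overlapped, and its log2 fold change was -0.22, or 0.0016 without the libraries at both ends of the first principal component. It was -0.12 without MRT199665 replicate 2, -0.35 without MRT199665 replicate 3 and -0.10 without vehicle replicate 2. BARD1, the partner of BRCA1 in that ligase, averaged 31.7 ± 1.77 CPM in MRT199665 libraries and 29.7 ± 2.20 CPM in vehicle libraries (SD, n = 3 each), a log2 fold change of 0.10 with an interval from -0.18 to 0.37. BRCA2, which loads the recombinase onto single strands, was at 20.4 ± 3.32 CPM in MRT199665 libraries and 21.4 ± 3.20 CPM in vehicle libraries (SD, n = 3 each).

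None of the other recombination genes passed the test either. RAD50, the ATPase of the complex that first binds a break, had 89.6, 87.6 and 82.4 CPM with MRT199665 and 90.1, 89.7 and 99.9 CPM with vehicle. These groups just failed to overlap, at a log2 fold change of -0.11 with an interval from -0.35 to 0.13. NBN, which binds RAD50's complex and recruits ATM, had a log2 fold change of 0.04, the exonuclease gene EXO1 -0.30, the helicase gene WRN -0.18, and the paralogue genes RAD51C and XRCC3 -0.22 and 0.26. PALB2, which bridges BRCA1 and BRCA2, had 28, 14 and 43 counts with MRT199665 and 43, 36 and 28 with vehicle. Scaled to library size these were 2.11, 2.37 and 3.05 CPM with MRT199665 and 3.61, 3.09 and 2.85 CPM with vehicle. The log2 fold change of PALB2 was -0.33 with an interval from -0.90 to 0.23. RAD54L, a motor protein that remodels chromatin during strand exchange, had 9, 14 and 13 counts with MRT199665, against 11, 10 and 3 with vehicle. The size of its log2 fold change, 0.70 with an interval from -0.59 to 2.00, rests on these few counts.

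In end joining, the Ku subunit XRCC6 and the kinase PRKDC, which together hold a broken end, were slightly lower in every MRT199665 library. XRCC6 (Ku70) had 111, 98.2 and 97.7 CPM with MRT199665, against 117, 127 and 127 CPM with vehicle. PRKDC, the catalytic subunit that Ku recruits, had 144, 119 and 141 CPM with MRT199665, against 158, 157 and 162 CPM with vehicle. Neither passed the test, with log2 fold changes of -0.28 ± 0.11 (SE, adjusted p = 0.291) for XRCC6 and -0.24 ± 0.11 (SE, adjusted p = 0.376) for PRKDC. The other Ku subunit, XRCC5 (Ku80), did not share that order of libraries. It had 207, 312 and 223 CPM with MRT199665 and 271, 225 and 252 CPM with vehicle, with its highest value in MRT199665 replicate 2. The log2 fold change was -0.01 with an interval from -0.40 to 0.37, and its sign changed in 3 of the 6 fits that left out a library.

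XRCC4, the scaffold of the ligase that seals the ends, had 6.49, 7.10 and 7.73 CPM with MRT199665 and 8.72, 10.0 and 8.45 CPM with vehicle. The groups did not overlap, and the log2 fold change was -0.35 ± 0.16 (SE, adjusted p = 0.363). LIG4, that ligase, had 33, 12 and 38 counts with MRT199665 and 32, 32 and 35 with vehicle, too few for a narrow interval (-0.84 to 0.27). TP53BP1, a chromatin reader that limits resection and so favours end joining, had a positive value, at 33.0, 42.1 and 35.0 CPM with MRT199665 and 34.2, 26.7 and 29.4 CPM with vehicle. Its groups overlapped, and its log2 fold change was 0.28 ± 0.15 (SE, adjusted p = 0.433). Without MRT199665 replicate 2 it was 0.18, and without both ends of the first principal component 0.09.

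The checkpoint kinases split by sign. CHEK1, the kinase that ATR activates at stalled forks, had 22.0, 22.1 and 23.4 CPM in MRT199665 libraries and 29.7, 26.3 and 27.9 CPM in vehicle libraries. The MRT199665 values lay close together and below all vehicle values, and the log2 fold change was -0.31 ± 0.12 (SE, adjusted p = 0.275). The interval, from -0.58 to -0.04, stayed within 1.5-fold. ATM, the kinase that answers double-strand breaks, had 55.1, 47.7 and 48.7 CPM with MRT199665 and 42.0, 51.8 and 50.7 CPM with vehicle, overlapping groups with a log2 fold change of 0.07. Single left-out libraries put it between -0.02 (without vehicle replicate 1) and 0.12 (without vehicle replicate 2). ATR, the sensor of single-stranded DNA, averaged 7.10 ± 0.914 CPM in MRT199665 libraries and 6.28 ± 0.148 CPM in vehicle libraries (SD, n = 3 each), a log2 fold change of 0.19. CHEK2, the main target of ATM, had 15, 33 and 25 counts with MRT199665, against 29, 17 and 14 with vehicle. Its highest count was in the shallowest library, MRT199665 replicate 2, and its log2 fold change of 0.50 had an interval from -0.79 to 1.78.

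Both mismatch repair genes had overlapping groups. MSH6, which recognises mispaired bases as part of a heterodimer, had 26.3, 16.6 and 18.2 CPM with MRT199665 and 21.6, 22.1 and 24.1 CPM with vehicle. MRT199665 replicate 1 was the highest and replicate 2 the lowest of all 6 libraries, and the log2 fold change was -0.14 with an interval from -0.56 to 0.28. That value was -0.37 without MRT199665 replicate 1, -0.02 without MRT199665 replicate 2 and -0.07 without MRT199665 replicate 3. PMS2, the endonuclease that acts after recognition, had 29, 7 and 22 counts with MRT199665 and 26, 22 and 11 with vehicle. Scaled to library size, PMS2 had a log2 fold change of -0.04 with an interval from -0.83 to 0.76. Its 8 pseudogene rows held 213 counts in all, against 117 for PMS2 itself, so the assignment of reads to this gene is uncertain.

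Of the Fanconi genes, FANCD2 and FANCI, the pair whose ubiquitination marks a crosslink for repair, had similar negative values. FANCD2 had 29.3, 31.9 and 29.1 CPM with MRT199665, against 39.3, 29.4 and 41.6 CPM with vehicle. Only vehicle replicate 2 lay within the MRT199665 range, and the log2 fold change was -0.29 ± 0.15 (SE, adjusted p = 0.428). It was -0.44 without vehicle replicate 2 and -0.19 without vehicle replicate 3. FANCI had 10.4, 13.2 and 10.5 CPM with MRT199665, against 17.95, 11.1 and 14.5 CPM with vehicle, and vehicle replicate 2 again was the library that overlapped. Its log2 fold change was -0.37 with an interval from -0.83 to 0.10. The core complex genes FANCA, FANCC and FANCG, whose products ubiquitinate that pair, had log2 fold changes of 0.13, 0.05 and -0.29, all with overlapping groups.

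In nucleotide excision, 6 of 7 genes had intervals within 1.5-fold, and none passed the test. DDB2, which binds ultraviolet damage and is known as a p53 target, had 99.1, 103 and 92.4 CPM with MRT199665, against 114, 125 and 117 CPM with vehicle. The groups did not overlap, and the log2 fold change was -0.27 ± 0.11 (SE, adjusted p = 0.276). DDB1, its partner and a ubiquitin ligase adaptor, had 144, 148 and 152 CPM with MRT199665 and 186, 148 and 149 CPM with vehicle. Vehicle replicate 1 alone stood above the rest, and the log2 fold change was -0.12, or -0.0038 without that library and -0.18 without vehicle replicate 2. XPC, the main damage sensor of this route and also a known p53 target, was at 25.4 ± 0.767 CPM in MRT199665 libraries and 25.4 ± 2.68 CPM in vehicle libraries (SD, n = 3 each).

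ERCC1, a subunit of the nuclease that cuts on the 5′ side of the lesion, was 1 of the 2 members above vehicle in every library. It had 10.95, 16.7 and 12.4 CPM with MRT199665 and 9.48, 9.27 and 10.89 CPM with vehicle. MRT199665 replicate 1 and vehicle replicate 3 all but met, and its log2 fold change was 0.42 ± 0.19 (SE, adjusted p = 0.350). Without MRT199665 replicate 2 it was 0.24, and without both ends of the first principal component 0.20. XPA, which verifies the damage, and the helicases ERCC2 and ERCC3 had log2 fold changes of 0.09, -0.0043 and -0.08, with overlapping groups.

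Base excision held both the lowest p of all members, XRCC1, and the other gene that was higher in every library, OGG1. XRCC1 is the scaffold that brings ligase and polymerase to a single-strand break. It had 19.6, 21.6 and 17.9 CPM in MRT199665 libraries and 26.8, 37.7 and 27.2 CPM in vehicle libraries. All MRT199665 values lay below all vehicle values, with vehicle replicate 2 apart from the other vehicle libraries. The level was 1.56-fold lower with MRT199665. Its log2 fold change was -0.64 ± 0.17 (SE, adjusted p = 0.127) with an interval from -1.02 to -0.25. Of 16 alternatives 1, the fit without a low-count filter, called XRCC1 lower (adjusted p = 0.0133). DESeq2 gave an adjusted p of 0.0552, just over the threshold. Over all 16 the adjusted p of XRCC1 ran from 0.0133 to 0.414, the highest with the replicate number as a block. Its upstream 250 bases are given for comparison with BLM, with the same letters in capitals (GRCh38.p14, chr19:43575528-43575777, minus strand, RefSeq).
XRCC1: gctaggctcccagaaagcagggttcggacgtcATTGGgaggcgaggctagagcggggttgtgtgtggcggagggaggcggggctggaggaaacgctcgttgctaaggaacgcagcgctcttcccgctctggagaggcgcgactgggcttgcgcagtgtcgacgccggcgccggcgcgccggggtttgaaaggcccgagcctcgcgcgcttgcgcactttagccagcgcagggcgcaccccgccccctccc

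OGG1, the glycosylase that removes oxidised guanine, had 9.89, 13.2 and 9.43 CPM with MRT199665 and 8.39, 7.46 and 7.84 CPM with vehicle. The groups did not overlap, and MRT199665 replicate 2 was the highest. For OGG1 the log2 fold change was 0.44 ± 0.18 (SE, adjusted p = 0.300), and 0.29 without MRT199665 replicate 2. APEX1, the endonuclease that cuts after a glycosylase, had 98.4, 143 and 104 CPM with MRT199665 and 110, 71.3 and 107 CPM with vehicle. Here too MRT199665 replicate 2 was the highest and vehicle replicate 2 the lowest, and the log2 fold change of 0.26 had an interval from -0.20 to 0.72. POLB, the gap-filling polymerase, had 26.0, 22.3 and 25.1 CPM with MRT199665 and 26.8, 30.6 and 27.2 CPM with vehicle, without overlap and with a log2 fold change of -0.20.

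PARP1, which marks strand breaks with poly(ADP-ribose) and is the target of PARP inhibitors, had 563, 424 and 550 CPM with MRT199665 and 505, 585 and 543 CPM with vehicle. The groups overlapped, with MRT199665 replicate 2 below the others. Its log2 fold change was -0.09 ± 0.14 (SE, adjusted p = 0.840), and it turned to 0.03 without MRT199665 replicate 2. The other 5 fits that left out a library gave -0.16 to -0.04. LIG3, the ligase that XRCC1 carries, and MUTYH, a glycosylase that removes adenine opposite oxidised guanine, had log2 fold changes of -0.02 and -0.01.

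**Figure D3:**
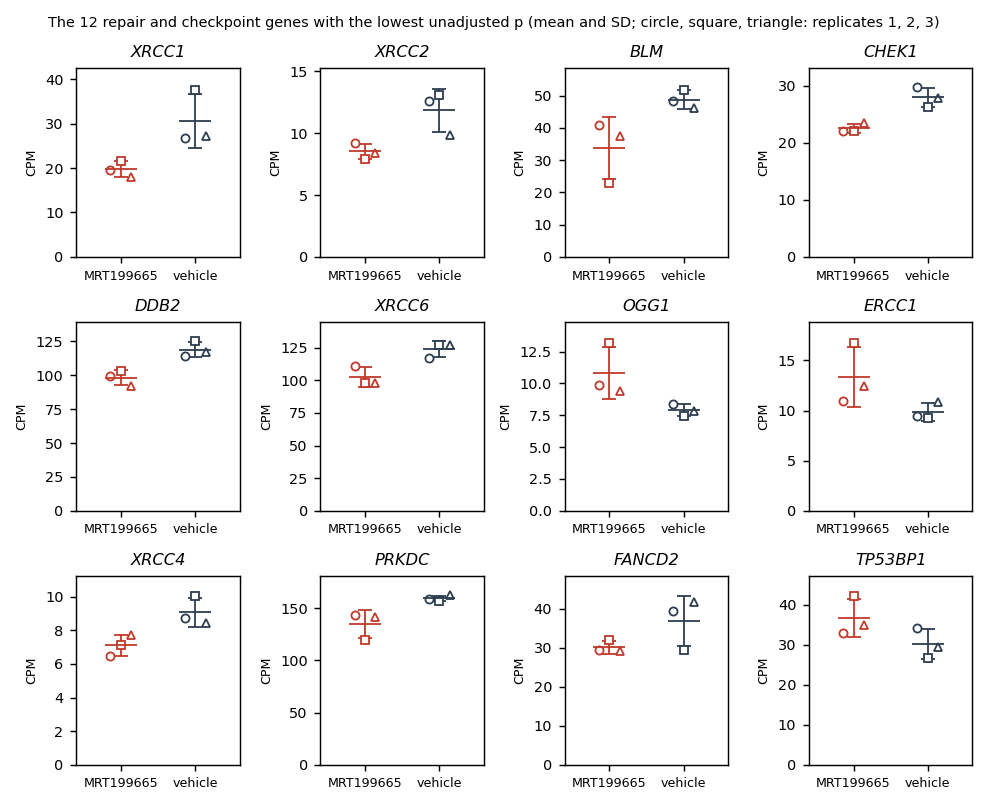
Levels in CPM (y axis, from 0) of the 12 members with the lowest unadjusted p, in MRT199665 libraries at the left of each panel and vehicle libraries at the right. Markers are libraries (circle, square and triangle for replicates 1, 2 and 3), and bars give the mean and SD of 3. OGG1 and ERCC1 lie above vehicle in each library, FANCD2 and TP53BP1 overlap between the groups, and the other 8 lie below vehicle.

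MGMT, which removes alkyl groups from guanine and so protects cells from alkylating drugs, had a count of 0 in all 6 libraries. A count of 0 allows up to 3 counts, or 0.210 to 0.511 CPM with MRT199665 and 0.250 to 0.315 CPM with vehicle, and this covers counting error only. CEBPA, a myeloid transcription factor, was likewise at 0, and how the authors' counting assigned reads at either gene was not tested. ALKBH2 and ALKBH3, the other direct reversal enzymes looked at, were detected, with log2 fold changes of -0.07 and 0.09. The MGMT promoter is shown because the gene was the one member without a count. Capitals mark CG dinucleotides, of which it held 36 in 250 bases, a number reached by 4.73% of 27305 promoters and by no other of the 39 members with an entry. Methylation was not measured in these libraries (GRCh38.p14, chr10:129466991-129467240, plus strand, RefSeq).
MGMT: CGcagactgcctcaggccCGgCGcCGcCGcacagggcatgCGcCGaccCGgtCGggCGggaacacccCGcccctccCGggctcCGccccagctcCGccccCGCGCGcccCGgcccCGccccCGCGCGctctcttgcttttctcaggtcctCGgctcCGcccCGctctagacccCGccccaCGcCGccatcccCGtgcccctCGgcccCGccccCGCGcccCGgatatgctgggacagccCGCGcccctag

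Promoters of the members were searched on both strands over the same 250 bases, for the 39 of 45 members in the RefSeq table (not WRN, NBN, XRCC5, PRKDC, FANCI and POLB). CCAAT was found in 18 of the 39 (46.2%), against 33% of 27305 promoters. BLM held it 3 times and XRCC1 once. Any of TTTCCCGC, TTTGGCGC, TTTCGCGC and TTTGCCGC, letters typical of E2F sites, were found in 4 (10.3%), PMS2, FANCA, FANCC and XPC, against 2.79% of all promoters. None of these 4 was among the 12 members whose groups did not overlap, of which PRKDC and POLB had no entry to search. With only 4 matches in all, this cannot tell those 12 from the other members. TTTGAA or TTCGAA, letters of the cell cycle element CHR, was found in 3 (7.69%), ATM, FANCC and XRCC1, against 14.6%. Member promoters held a median of 22 CG dinucleotides, against 11 over all promoters, and the part of base composition in these shares was not tested. Overlaps between matches of different motifs were not counted, and a match is only a match of letters.

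Further repair genes were looked at in the same way. From a list of 128 other genes of these routes and of damage tolerance, 122 were tested and none passed the threshold, with 83 negative log2 fold changes (49.1% of all tested genes were negative), 39 positive ones and a median of -0.11. ZSWIM7, a partner of a recombinase paralogue, had a log2 fold change of 0.57 (adjusted p = 0.140), and POLQ, the polymerase of microhomology-mediated joining, -0.59 (adjusted p = 0.156). An unadjusted p under 0.05 was reached by 2 of the 122 with a positive and 15 with a negative value, against 7.64% and 7.11% of all tested genes. Without a low-count filter the genes called included LIG1 and RFC4, both lower, and ZSWIM7, higher.

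Genes that p53 is known to induce after DNA damage were mixed. Of 26 tested, which include DDB2 and XPC, none passed the threshold, 16 had negative and 10 positive values, and the median was -0.03. CDKN1A, which halts the cycle, had a log2 fold change of -0.29 (adjusted p = 0.354) and was chosen for mention after its value was seen. The lowest p were those of PMAIP1, a BH3-only death protein, with a log2 fold change of -0.44 (adjusted p = 0.167), TP53I3, an oxidoreductase, with 0.91 (adjusted p = 0.173), and TP53INP1, a stress protein, with 0.52 (adjusted p = 0.234).

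Most cell cycle genes had negative values too. Of 20 genes of G2 and mitosis 18 had negative values, against 49.1% of all tested genes, with a median log2 fold change of -0.36 and a lowest adjusted p of 0.0840 for HMMR, and 12 had every MRT199665 library below every vehicle library, against 10.8% of all tested genes. PTTG1 and CCNA2 followed, with log2 fold changes of -0.63 and -0.38. Of 26 genes of S phase and replication 18 were negative, against the same 49.1%, with a median of -0.14, and the lowest p were those of ORC1 (-0.65, adjusted p = 0.0669), CDT1 (-0.48) and E2F2 (0.61). None of these genes passed the test. The gene lists, like the members, were chosen with earlier results of these data known, so their shares are descriptive only. The part of the cell cycle in the members' values was not tested, and in bulk libraries fewer cells in a phase and less RNA per cell cannot be told apart.

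Averaged over the 44 members, log2 CPM minus each gene's mean was -0.06, 0.02 and -0.06 in MRT199665 replicates 1, 2 and 3, against 0.10, 0.00065 and 0.0020 in vehicle replicates 1, 2 and 3. The groups overlapped at MRT199665 replicate 2, and vehicle replicate 1 was the highest. For the genes of G2 and mitosis the same measure was -0.15, -0.06 and -0.19 with MRT199665 and 0.25, 0.05 and 0.10 with vehicle. These groups did not overlap, and vehicle replicate 1 was again the highest. The other repair genes did not overlap either, with -0.02 in the highest MRT199665 library and 0.00079 in the lowest vehicle library. Genes of S phase and replication also did not, with -0.013 in the highest MRT199665 library and -0.0062 in the lowest vehicle library. The p53-responsive genes overlapped. Summed over the members, levels were 2227, 2180 and 2214 CPM with MRT199665 and 2362, 2360 and 2372 CPM with vehicle, sums in which PARP1 and XRCC5 weigh most.

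**Figure D4:**
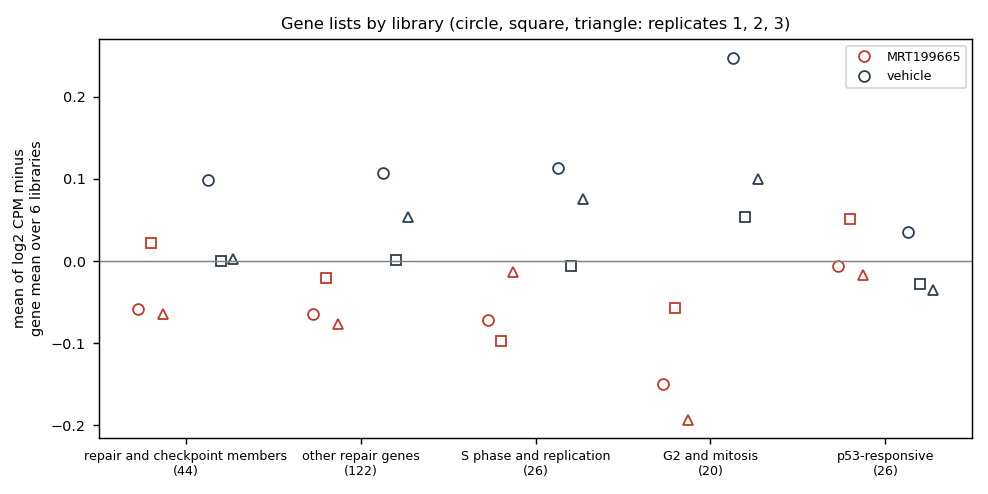
For each gene list (x axis, number of tested genes in brackets) the y axis gives the mean over genes of log2 CPM minus the gene's mean over 6 libraries. MRT199665 libraries are the left cluster and vehicle libraries the right, with circle, square and triangle for replicates 1, 2 and 3. The repair and checkpoint members overlap at MRT199665 replicate 2 (0.02), and the p53-responsive genes overlap too. The G2 and mitosis list separates the groups, and so, by narrow margins, do the other repair genes and the S phase and replication genes.

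Exons of other genes overlap 26 of the 45 members in GENCODE release 29, on the opposite strand for 25, and with an unknown strand setting the reads of such a pair cannot be assigned with certainty. For OGG1 and ERCC1 the overlapping neighbours TADA3 and CD3EAP had log2 fold changes of -0.11 and 0.16, and for CHEK1 the neighbour STT3A on the same strand had 0.05. None of these neighbours passed the test. OGG1 also overlaps CAMK1 on the opposite strand, which was not among the tested genes. XRCC1 overlaps 3 annotated genes that have only clone names, 1 on its own strand and 2 on the other, and their share in its counts was not tested.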

How the data were processed

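Genes were counted in 6 libraries of OCI-AML2 (3 with MRT199665, 3 with vehicle), prepared with a Lexogen 3′ kit per the labels. The deposited table holds raw counts per gene symbol. STAR 2.4, HTSeq 0.6.1, DESeq2 and the build hg19 are named in the submitters' processing notes. The annotation and strand setting are not given in the sources used here. Groups and replicate numbers came from the labels. Coordinates are given only for promoter sequences, from RefSeq on GRCh38.p14, a later build than that of the counts.

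Genes were kept by filterByExpr (minimum count 10, minimum total 15), which left 13053 of 55765, and tested with edgeR 4.0.16 in R 4.3.3 (TMM, glmQLFit, glmQLFTest, group as the only term, two-sided, Benjamini-Hochberg over all tested genes). The SE is the log2 fold change divided by the square root of F, and 95% intervals use the test's degrees of freedom. Marker sums and floors use CPM of plain totals. Log2 CPM had a prior count of 2. As a check of the code, the edgeR fit was run on counts simulated with the means and dispersions of these data. No result given here rests on that run. Alternatives were RLE, upper-quartile and no scaling factors, 2 other low-count filters, DESeq2 1.42.0, limma-voom (limma 3.58.1), the newer quasi-dispersion of edgeR, the replicate number as a block, and leaving out each library or both ends of the first principal component. Libraries of a group differed beyond counting noise (chi-square per degree of freedom 9.70 or more), so none was treated as a copy.

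Members and lists were chosen with earlier results of these data known. Values in every library are given for the 12 members with the lowest p, for the member with the lowest p and that with the highest level in each route, and for a further few members (chosen after their values were seen). From the other lists the 3 genes with the lowest p are named, except 1 result that is not reported here. Of 222 list genes 221 had a row, 5 of them under an older symbol matched through RefSeq.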

Additional observations from a re-analysis of the deposited data

How the results depend on the processing

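No member was called higher under any of the 16 alternatives, and 43 of 44 were never called lower. Without a low-count filter 1 member was called lower (XRCC1), with 373 genes higher and 271 lower over the whole table and 4 other repair genes called. DESeq2 called 215 genes higher and 148 lower and 1 other repair gene, and the fit with the replicate number as a block called 7 and 5 genes and no member. Replicate numbers did not pair the libraries, since deviations of same-numbered libraries correlated between -0.55 and 0.02 and no library correlated best with its own number. Single left-out libraries gave 29 to 79 genes called higher and 20 to 55 called lower. The fits without MRT199665 replicate 1 (57 higher, 22 lower), MRT199665 replicate 2 (67, 31), MRT199665 replicate 3 (37, 20), vehicle replicate 2 (69, 30) and vehicle replicate 3 (29, 20) each differed by over 1.5 times from the 111 and 52 of all libraries. The members' median log2 fold change ran from -0.13 to -0.026 (without MRT199665 replicate 1 and without vehicle replicate 1), and 27 of 44 members kept their sign in all alternatives. Signs of XRCC5 (-0.21 to 0.095), PARP1 (-0.16 to 0.032) and ATM (-0.020 to 0.12) changed when single libraries were left out. Without both ends of the first component BRCA1 stood at 0.0016 and PARP1 at 0.084. The causes were not tested. Depth limits the members under 5 CPM, 6 of 44 in each group, and the intervals of RAD54L and CHEK2 among them pass 2-fold. The 12671 genes with at least 1 CPM in 3 libraries did not include RAD54L.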
